A study of Mus musculus with 15 samples.

Results

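The genes described here encode 7 enzymes and 1 membrane channel that red cells use against oxidants and in the exchange of gases, namely Prdx2, Cat, Gpx1, Sod1, Blvrb, Car2, Bpgm and Aqp1. They were taken by name and found through their Ensembl identifiers. All 8 were present among the 55416 gene identifiers of the deposited count tables, and 8 of 8 passed the filter on low counts in each comparison. The study asked whether the timing of surgery on the draining lymph nodes of a tongue tumor, relative to immune checkpoint inhibition (ICI), alters the RNA of whole blood. Blood from 15 mice was sequenced in read pairs of 150 bases, 1 library per mouse. The mice were wild type C57BL/6, which the study's methods give as females of 4 to 6 weeks when tumors were implanted.

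In the early ND group, 5 mice received 1000000 cells of the mouse oral carcinoma line 4MOSC1 in the tongue, then 2 doses of antibody against CTLA-4, and then an early neck dissection (ND), the removal of the neck lymph nodes. The 5 mice of the late ND group received the same cells and antibody, with a late neck dissection. The 5 mice of the untreated group are labelled as without treatment and without surgery. The labels carry the same text on transplantation and 10 days of tumor growth for all 15 samples, and nothing else states whether the untreated mice bore tumors. The study's text places the bleed after the late operation and its figure legend places it before, so late ND is used here as the name of a group, whichever holds. The untreated mice differ from the early ND mice in both antibody and surgery, so these cannot be told apart in that comparison. The same holds for the late ND mice if they were bled after their operation. If they were bled before it, they differed from the untreated mice in antibody but not in surgery, and from the early ND mice in surgery itself.

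Red cells carry oxygen on hemoglobin, which releases superoxide and peroxide as it oxidizes. Superoxide dismutase turns superoxide into hydrogen peroxide, and peroxiredoxin, catalase and glutathione peroxidase remove the peroxide, while other red cell proteins hydrate carbon dioxide, set the oxygen affinity of hemoglobin through bisphosphoglycerate, and let water and gases cross the membrane. Mature red cells of mice have no nucleus, and the RNA that remains in young ones, the reticulocytes, was made before the nucleus was lost.

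The libraries differed in depth and in what filled them. Between 5862888 and 10796099 counts per library fell on genes in untreated mice (median 6266684), between 5527108 and 7182346 in early ND mice (median 6727311) and between 7849602 and 13924361 in late ND mice (median 10929570). The 4 hemoglobin genes took 60.0%, 31.6%, 61.7%, 46.7% and 41.9% of gene counts in untreated mice 1 to 5. They took 38.3%, 50%, 39.7%, 64.1% and 50.7% in early ND mice 1 to 5, and 29.0%, 17.5%, 19.2%, 29.3% and 14.9% in late ND mice 1 to 5. Every late ND library thus held a smaller hemoglobin share than any other library. In untreated 2, late 2 and late 3 the 18S ribosomal gene Rn18s-rs5 had 766, 313 and 521 counts per 1000000 (CPM), against at least 13402 CPM in each of the other 12 libraries, so these 3 stand apart. Levels below are CPM after the trimmed mean of M values (TMM) scaling, which sets the libraries on a common scale through the bulk of their genes. The TMM factors ran from 0.425 (untreated 1) to 1.92 (late 2).

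The 8 genes together took 1.01%, 0.797%, 0.708%, 0.873% and 0.397% of gene counts in untreated mice 1 to 5. They took 0.481%, 0.939%, 0.823%, 0.976% and 1.08% in early ND mice 1 to 5, and 0.456%, 0.461%, 0.357%, 0.377% and 0.277% in late ND mice 1 to 5. Every late ND library lay below every early ND library in this share, and untreated 5 was the only untreated library within the late ND range. Bpgm supplied from 51.5% (late 5) to 75.9% (early 4) of the counts of the 8 genes. The thinnest counts were those of Aqp1, with 74 to 357 per library (median 163), and of Sod1, with 138 to 982 (median 420). Prdx2 had 667 to 3364 counts (median 1556), Cat 941 to 2408 (median 1709), Blvrb 310 to 1260 (median 605) and Car2 381 to 2390 (median 952). Gpx1 had 4666 to 17541 (median 10717) and Bpgm 13287 to 60248 (median 37725).

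The promoters of the 8 genes were read for short motifs that recur in red cell genes and in genes of the oxidant response. The table of RefSeq promoters used (build GRCm38.p6) matched 7 of the 8 genes, with 8 entries in all because Blvrb has 2, and had no entry for Car2. The 250 bases before each start were searched on both strands. AGATAA and TGATAA stood for the GATA motif, TGACNNNGC for the core of the antioxidant response element and TATAAA for the TATA box. CCNCNCCC stood for the CACC box, although strings without CACC, such as CCCCGCCC, match it too. Other GATA strings, such as TGATAG, which a Blvrb entry holds, were not searched. Of the 8 entries, 0 held AGATAA or TGATAA, which 16.6% of 32851 promoters of that length hold (9.99% and 7.94% for each alone). CCNCNCCC was found in 6 of the 8 entries, against 45.9% of all promoters. The match in Bpgm, GGGCGGGG, reads CCCCGCCC on the other strand and holds no CACC. TGACNNNGC and TATAAA were each found in 1 entry, that of Sod1, against 10.2% and 12.4% of all promoters. A match is a string of letters and was not examined as a binding site. The sequences, 5′ to 3′ on the strand of the gene, are the promoters of the 3 peroxide genes, of Sod1 and of the most abundant gas exchange gene. They were picked with the RNA levels of these genes known. Capitals mark the matches. They lie at chr8:84969372-84969621 (Prdx2, plus strand), chr2:103485154-103485403 (Cat, minus strand), chr9:108338830-108339079 (Gpx1, plus strand), chr6:34476106-34476355 (Bpgm, plus strand) and chr16:90220512-90220761 (Sod1, plus strand) of GRCm38.p6.
Prdx2: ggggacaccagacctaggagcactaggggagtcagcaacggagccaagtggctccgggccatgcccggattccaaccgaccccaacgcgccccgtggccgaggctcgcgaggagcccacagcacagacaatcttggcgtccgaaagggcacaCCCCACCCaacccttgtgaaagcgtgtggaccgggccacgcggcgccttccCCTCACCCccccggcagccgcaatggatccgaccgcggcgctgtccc
Cat: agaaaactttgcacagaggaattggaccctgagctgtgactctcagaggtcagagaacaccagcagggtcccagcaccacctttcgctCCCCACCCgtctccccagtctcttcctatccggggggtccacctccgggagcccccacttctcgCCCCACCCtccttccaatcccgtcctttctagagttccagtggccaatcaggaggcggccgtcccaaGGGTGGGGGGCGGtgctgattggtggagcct
Gpx1: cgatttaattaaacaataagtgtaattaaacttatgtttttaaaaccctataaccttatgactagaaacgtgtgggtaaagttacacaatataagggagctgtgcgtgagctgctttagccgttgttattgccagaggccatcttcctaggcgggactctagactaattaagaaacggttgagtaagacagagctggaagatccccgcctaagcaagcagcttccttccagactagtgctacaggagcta
Bpgm: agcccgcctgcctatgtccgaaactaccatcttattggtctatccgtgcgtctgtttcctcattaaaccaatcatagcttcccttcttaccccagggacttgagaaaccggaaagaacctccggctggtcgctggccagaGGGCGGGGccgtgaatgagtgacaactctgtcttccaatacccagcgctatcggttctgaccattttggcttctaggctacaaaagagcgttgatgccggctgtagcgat
Sod1: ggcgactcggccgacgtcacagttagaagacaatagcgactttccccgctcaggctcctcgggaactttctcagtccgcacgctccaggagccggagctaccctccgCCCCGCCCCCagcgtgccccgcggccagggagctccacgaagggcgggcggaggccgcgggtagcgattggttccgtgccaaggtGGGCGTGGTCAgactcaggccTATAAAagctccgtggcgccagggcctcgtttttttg
The Prdx2 promoter held 2 matches to CCNCNCCC, that of Cat 4, that of Bpgm 1 and that of Sod1 3, while the Gpx1 window held none of the 5 motifs. Whether any of these motifs bears on the RNA levels was not tested.

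The counts were made on build GRCm39, where the 8 genes lie on 7 chromosomes, with only Bpgm and Aqp1 on the same one. Prdx2 (ENSMUSG00000005161) lies at chr8:85693354-85702350 on the plus strand. Of the 2144 exon bases of its canonical transcript, 39.1% (838 bases) lie opposite exons of Rnaseh2a, Junb or Gm49661. Sod1 (ENSMUSG00000022982) lies at chr16:90017408-90027657 on the plus strand, and 79.3% of its canonical exon bases (4213 of 5315) lie opposite Scaf4. Whether the counting used strand is not stated, so reads of these genes and their opposite partners cannot be told apart, and the counts of Prdx2 and Sod1 are uncertain to that extent. Over all annotated exons of Gpx1, 85.3% of bases lie opposite Gm57050, which is not among the counted genes, so its reads, if any, could have been added to Gpx1. The other 5 genes had no exon base opposite another gene. Only Bpgm (ENSMUSG00000038871, chr6:34453142-34484029, plus strand) had near-identical copies elsewhere, 4 stretches of at most 103 bases at 98% identity or more, short against its transcript of 3701 bases.

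Levels can be set between genes only per length of transcript. Over the 15 libraries and per kilobase of canonical transcript, Gpx1 (1638 CPM per kilobase, SD 1244) and Bpgm (1563, SD 1335) were the most abundant, and Gpx1 lay above Bpgm in 11 of 15 libraries. Prdx2 (129, SD 112), Blvrb (98.4, SD 81.7), Car2 (96.4, SD 87.8) and Cat (92.2, SD 52.1) followed. Prdx2 lay above Blvrb in 14 of 15 libraries, Blvrb above Car2 in 10 and Car2 above Cat in 5. Sod1 (9.85, SD 2.35) and Aqp1 (6.61, SD 2.66) were the least abundant, and Sod1 lay above Aqp1 in 13 of 15 libraries. Which length is used matters for the order at the top. Per kilobase of coding sequence, Bpgm (7443, SD 6359) lay above Gpx1 (2911, SD 2212) in 15 of 15 libraries, and Sod1 (113, SD 27.0) came close to Cat (152, SD 86.1).

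**Figure D1:**
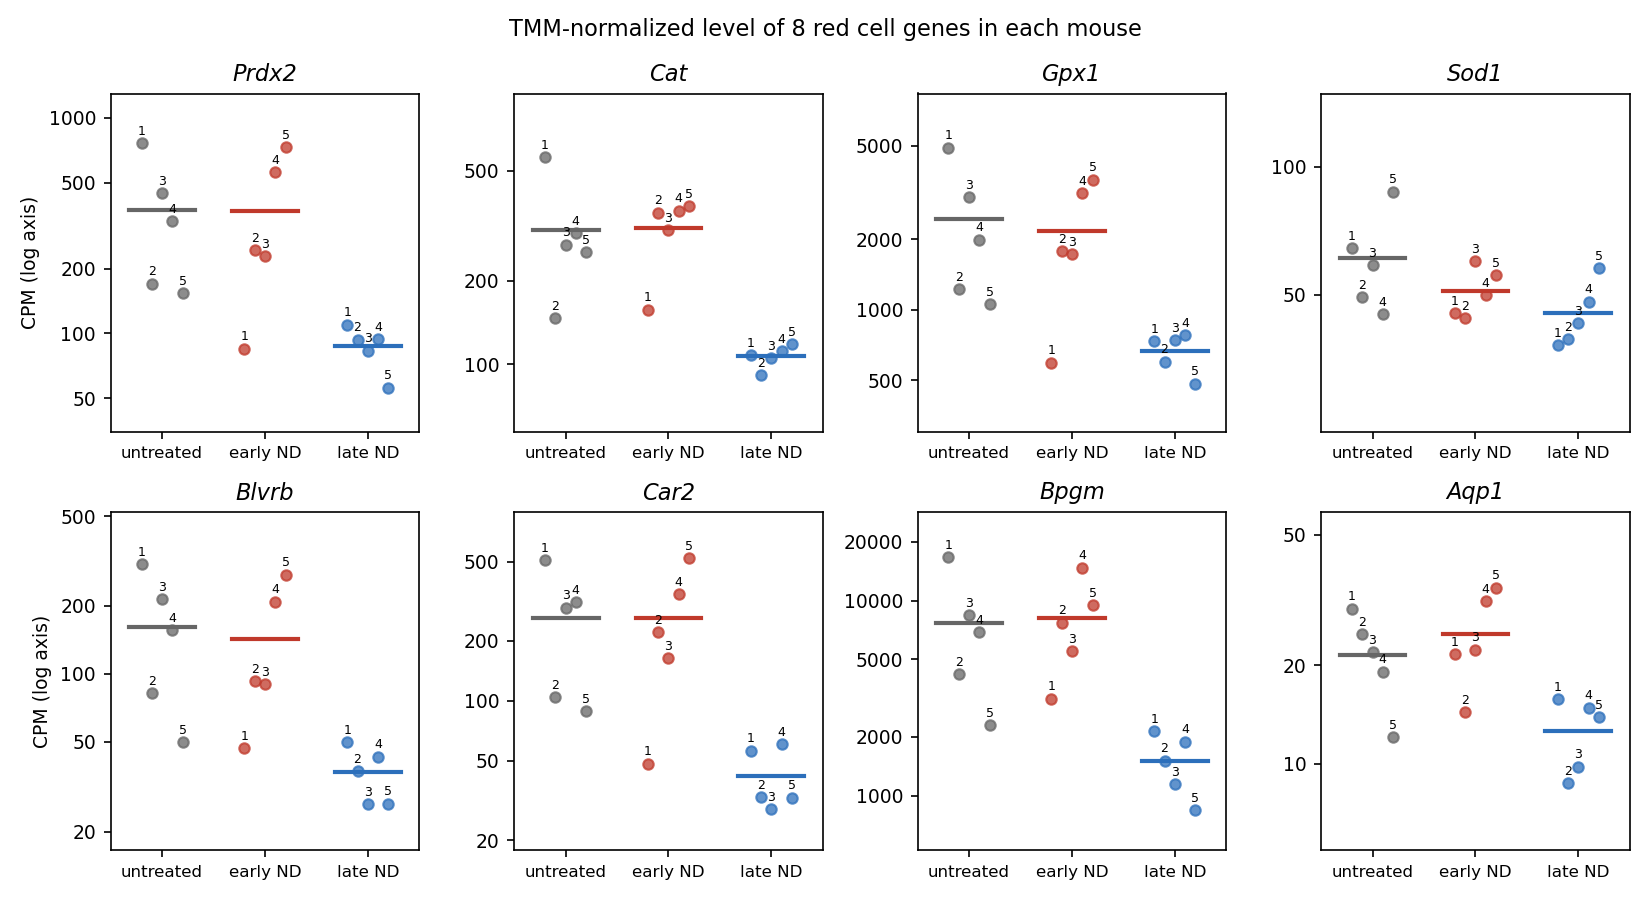
TMM-normalized CPM (log axis) of each gene in each mouse, by group, with points numbered by mouse and a line at the group mean. All late ND points of Cat and Bpgm lie below all early ND points, whereas early 1 lies among the late ND mice for Prdx2, Gpx1, Blvrb and Car2, and Sod1 overlaps throughout.

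Prdx2 encodes peroxiredoxin 2, an abundant red cell protein that reduces hydrogen peroxide through a cysteine. Its level was 764, 170, 448, 331 and 154 CPM in untreated mice 1 to 5, and 85.0, 243, 228, 559 and 734 CPM in early ND mice 1 to 5. Late ND mice 1 to 5 had 110, 93.4, 83.3, 93.9 and 56.0 CPM. The late ND mice lay below all 5 untreated mice and below 4 of 5 early ND mice, with early 1 inside the late ND range. Rnaseh2a, 1 of the genes opposite Prdx2, had 27.1 to 148 CPM in early ND mice and 19.9 to 35.2 CPM in late ND mice, with early 1 inside the late ND range.

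Cat encodes catalase, which splits hydrogen peroxide into water and oxygen. Its level was 559, 147, 271, 298 and 255 CPM in untreated mice 1 to 5, and 158, 353, 306, 359 and 373 CPM in early ND mice 1 to 5. Values of 108, 91.4, 105, 112 and 119 CPM were found in late ND mice 1 to 5, a coefficient of variation of 9.38% against 28.6% in early ND and 49.9% in untreated mice. The late ND mice sat close together below every other mouse, of which untreated 2 and early 1 came nearest.

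Gpx1 encodes glutathione peroxidase 1, which reduces hydrogen peroxide and lipid peroxides with glutathione. Its level was 4912, 1221, 3011, 1989 and 1054 CPM in untreated mice 1 to 5, and 594, 1775, 1724, 3131 and 3580 CPM in early ND mice 1 to 5. It was 735, 602, 742, 779 and 484 CPM in late ND mice 1 to 5. The late ND mice lay below all untreated mice, and early 1 again fell inside their range.

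Sod1 encodes the cytosolic copper and zinc superoxide dismutase, which almost all cells make. Its level was 64.3, 49.3, 58.7, 45.0 and 87.4 CPM in untreated mice 1 to 5, 45.2, 44.1, 59.9, 49.8 and 55.7 CPM in early ND mice 1 to 5, and 38.1, 39.4, 42.9, 48.2 and 57.7 CPM in late ND mice 1 to 5. The 3 groups overlapped, and the range over all 15 mice was narrower, as a ratio, than that of any other gene here. Untreated 5, which had the lowest value of its group for 6 of the 8 genes, had the highest for Sod1.

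Blvrb encodes biliverdin reductase B, which also reduces flavins and, slowly, methemoglobin. Its level was 307, 82.0, 214, 157 and 50 CPM in untreated mice 1 to 5, and 46.9, 92.8, 90.0, 209 and 275 CPM in early ND mice 1 to 5. Late ND mice 1 to 5 had 49.7, 37.0, 26.5, 43.1 and 26.7 CPM. The late ND mice lay below the untreated mice by a narrow margin, since late 1 and untreated 5 nearly met, and overlapped the early ND mice at early 1.

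Car2 encodes carbonic anhydrase 2, which hydrates carbon dioxide to bicarbonate. Its level was 508, 104, 294, 313 and 89.0 CPM in untreated mice 1 to 5, and 48.5, 222, 164, 343 and 522 CPM in early ND mice 1 to 5. It was 56.4, 33.0, 28.6, 60.6 and 32.8 CPM in late ND mice 1 to 5. Early 1 lay below late 1 and late 4, and all other early ND and untreated mice lay above the late ND mice.

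Bpgm encodes bisphosphoglycerate mutase, which makes the bisphosphoglycerate that lowers the oxygen affinity of hemoglobin. Its level was 16762, 4192, 8453, 6894 and 2300 CPM in untreated mice 1 to 5, and 3141, 7720, 5495, 14773 and 9505 CPM in early ND mice 1 to 5. Late ND mice 1 to 5 had 2135, 1512, 1140, 1888 and 839 CPM. Every late ND mouse lay below every other mouse, with untreated 5 nearest.

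Aqp1 encodes aquaporin 1, a water channel of red cell membranes that endothelial cells make as well. Its level was 29.7, 24.8, 21.9, 19.1 and 12.1 CPM in untreated mice 1 to 5, and 21.7, 14.4, 22.3, 31.4 and 34.5 CPM in early ND mice 1 to 5. Late ND mice 1 to 5 had 15.8, 8.74, 9.81, 14.8 and 13.9 CPM. The late ND range reached into both other groups, at untreated 5 and at early 2.

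The same few mice held the ends of most ranges. Untreated 1 had the highest value of its group for 7 of the 8 genes and early 5 for 6 of the 8, while untreated 5 and early 1 each had the lowest value of their groups for 6 of the 8. Within the early ND group the highest value exceeded the lowest 10.7-fold for Car2, 8.64-fold for Prdx2 and 1.36-fold for Sod1. Within the late ND group these ratios were 2.12, 1.96 and 1.51. The spread among early ND and untreated mice was thus of the size of the differences between groups for most of the 8 genes, which bears on every test below.

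Late ND mice were set against early ND mice. These groups differ in the timing of surgery, or in surgery itself if the bleed came before the late operation. The quasi-likelihood test of edgeR was run on 13315 genes, with p-values adjusted over all of them by Benjamini-Hochberg. At an adjusted p under 0.05, 333 genes were higher and 330 lower in late ND, 4.98% of the genes tested and 2.48% in the lower direction, and the median gene moved by 0.01 on the log2 scale. Of the 8 genes, 7 were lower and 0 higher, with Sod1 the exception. Levels in bulk RNA are shares of the RNA counted. Fewer young red cells in the blood, less of these RNAs per cell and more RNA from other cells cannot be told apart in them. Of the 7, Cat and Bpgm did not overlap between the groups, a separation seen in the lower direction for 390 genes (2.93%). The median log2 fold change of the 8 genes was −1.80, beside 0.01 for all genes tested.

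Among the peroxide genes, Prdx2 fell by 2.06 on the log2 scale (standard error 0.46, adjusted p = 0.0292, edgeR quasi-likelihood test with Benjamini-Hochberg adjustment), with 5 of 5 late ND mice below 4 of the 5 early ND mice. Cat fell by 1.51 (standard error 0.21, adjusted p = 0.0118 in the same edgeR quasi-likelihood test with Benjamini-Hochberg adjustment), with 5 of 5 late ND mice below every early ND mouse. Gpx1 fell by 1.67 (standard error 0.39, edgeR quasi-likelihood adjusted p = 0.0329, Benjamini-Hochberg). Sod1 differed by −0.15 (standard error 0.14, edgeR quasi-likelihood adjusted p = 0.567, Benjamini-Hochberg), less than its spread, and the sign turned to 0.71 when library totals replaced TMM, a scaling under which the median gene moved by 0.86. Blvrb fell by 1.94 (standard error 0.41, edgeR quasi-likelihood adjusted p = 0.0250, Benjamini-Hochberg). For the gas exchange genes, Car2 fell by 2.60 (standard error 0.49, edgeR quasi-likelihood adjusted p = 0.0176, Benjamini-Hochberg) and Bpgm fell by 2.41 (standard error 0.42, edgeR quasi-likelihood adjusted p = 0.0126, Benjamini-Hochberg). Aqp1 fell by 0.95 (standard error 0.24, edgeR quasi-likelihood adjusted p = 0.0413, Benjamini-Hochberg), and differed by −0.06 with library totals. Few genes fell further, since only 0.135% of the 13315 genes had a lower log2 fold change than Car2, 0.203% than Bpgm and 0.578% than Prdx2, against 2.83% for Aqp1 and 31.2% for Sod1.

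Leaving out 1 mouse at a time changed which of the 8 passed, although each log2 fold change stayed below 0 for all 8 genes in all 10 such fits. Cat and Bpgm passed in 10 of 10 fits, with highest edgeR quasi-likelihood adjusted p of 0.0391 and 0.0441 (Benjamini-Hochberg). Car2 passed in 9 and was lost without late 3 (edgeR quasi-likelihood adjusted p = 0.0517, Benjamini-Hochberg, within a range of 0.00151 to 0.0517). Blvrb passed in 6 and was lost without early 4, late 3, late 4 or late 5 (edgeR quasi-likelihood adjusted p of 0.0717, 0.0652, 0.0552 and 0.0537, Benjamini-Hochberg, lowest of the 10 fits 0.00433). Prdx2 passed in 5 and was lost without early 4, late 1, late 3, late 4 or late 5 (edgeR quasi-likelihood adjusted p of 0.0827, 0.0538, 0.0697, 0.0708 and 0.0595, Benjamini-Hochberg, lowest 0.00335). Gpx1 passed in 3, those without early 1, early 3 or late 2 (edgeR quasi-likelihood adjusted p of 0.00278, 0.0221 and 0.0463, Benjamini-Hochberg), and missed in the other 7, at 0.0512 without early 2, 0.0892 without early 4, 0.0570 without early 5, 0.0633 without late 1, 0.0709 without late 3, 0.0732 without late 4 and 0.0671 without late 5. Aqp1 passed in 2, those without early 2 or early 3 (edgeR quasi-likelihood adjusted p of 0.0251 and 0.0297, Benjamini-Hochberg), and missed at 0.0609 without early 1, 0.105 without early 4, 0.0722 without early 5, 0.0538 without late 1, 0.0528 without late 2, 0.0926 without late 3, 0.0731 without late 4 and 0.0627 without late 5. As counts, 6, 6, 7, 3 and 5 of the 8 genes passed without early 1 to 5, and 4, 6, 2, 3 and 3 without late 1 to 5. The number of all genes called moved as widely, from 145 without late 3 to 1610 without early 3. It was 431, 353, 151 and 561 without early 1, 2, 4 and 5, and 297, 822, 198 and 246 without late 1, 2, 4 and 5.

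Among the 8 libraries of these groups rich in 18S sequence, which leave out late 2 and late 3, 0 of the 8 genes passed in edgeR's quasi-likelihood test, where 4 of all genes did. In that fit 7 of the 8 had an unadjusted p under 0.05, as had 3213 of all 13440 genes tested. All 8 log2 fold changes were below 0, from −2.38 (Car2) to −0.09 (Sod1). DESeq2 was not run on that subset, and on all 10 libraries it called the same 7 genes lower. With the replicate number as a block in edgeR, Prdx2, Gpx1 and Blvrb lost their calls. In that blocked fit all 8 log2 fold changes were below 0, and 7 of the 8 genes had an unadjusted p under 0.05.

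**Figure D2:**
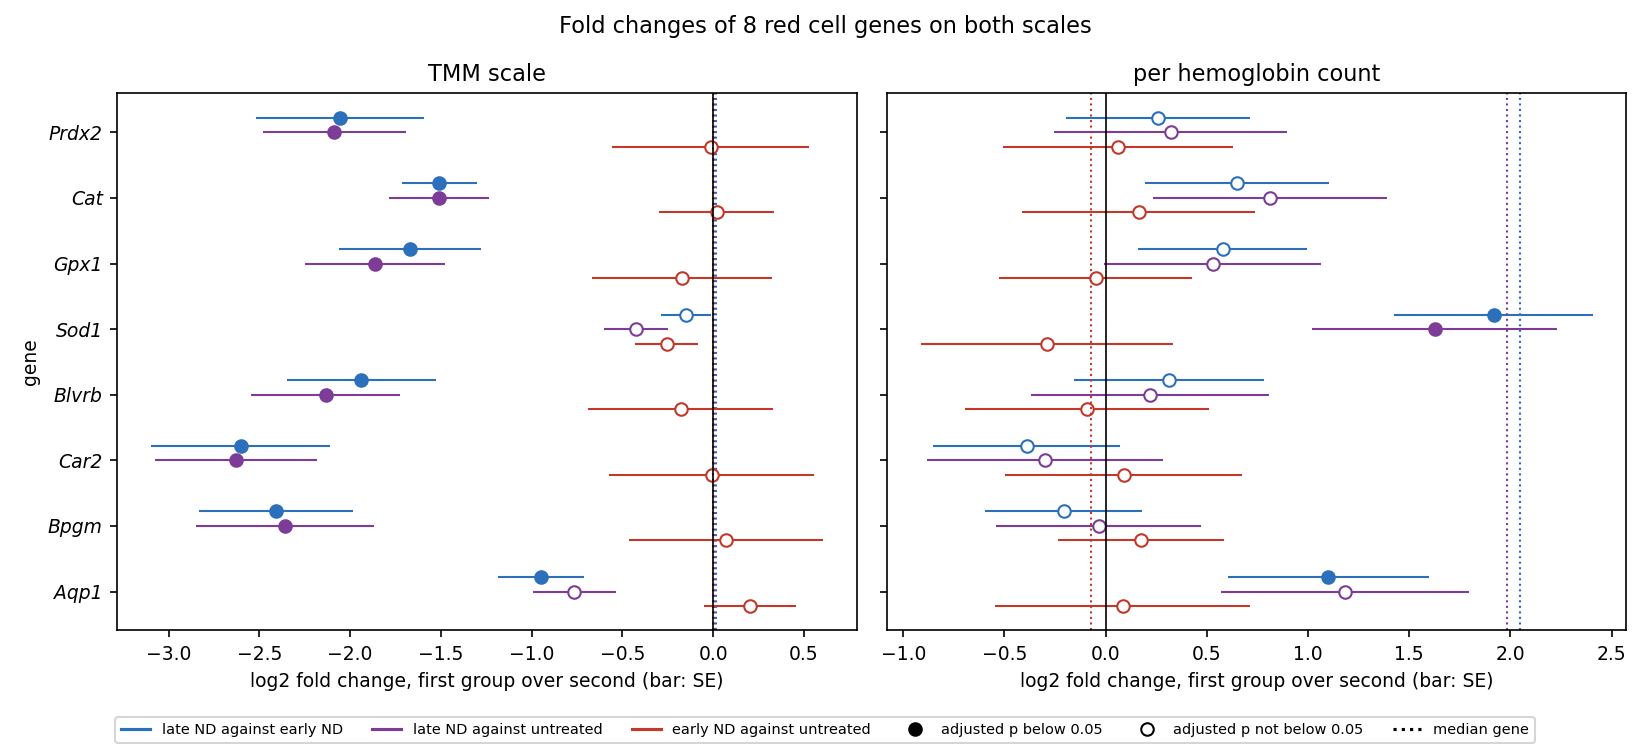
Log2 fold changes of the 8 genes (points, with bars of 1 standard error) in the 3 comparisons, on the TMM scale and per hemoglobin count, filled where the adjusted p was under 0.05, with dotted lines at the median gene. On the TMM scale the late ND comparisons lie well below the median gene for all but Sod1 and, less so, Aqp1, while per hemoglobin count most lie near 0 and the median gene lies near 2.

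Late ND mice were also set against untreated mice, with the late ND libraries shared with the comparison above. Over 13547 genes, edgeR's quasi-likelihood test called 134 higher and 272 lower, 3.0% of all and 2.01% in the lower direction. Of the 8 genes 6 were lower, and the same 6 did not overlap between the groups, a separation seen in the lower direction for 404 genes (2.98%). The log2 fold changes were −2.09 for Prdx2, −1.51 for Cat, −2.13 for Blvrb and −2.63 for Car2 (standard errors 0.39, 0.27, 0.41 and 0.45, each with an edgeR quasi-likelihood adjusted p of 0.0242, Benjamini-Hochberg). Gpx1 fell by 1.86 and Bpgm fell by 2.36 (standard errors 0.39 and 0.49, each with an edgeR quasi-likelihood adjusted p of 0.0271, Benjamini-Hochberg). Sod1 differed by −0.42 (standard error 0.18, edgeR quasi-likelihood adjusted p = 0.238, Benjamini-Hochberg) and Aqp1 by −0.76 (standard error 0.23, edgeR quasi-likelihood adjusted p = 0.104, Benjamini-Hochberg), and with library totals both signs turned, to 0.51 and 0.16, where the median gene moved by 0.91. With library totals Cat (−0.38) and Gpx1 (−0.65) no longer passed either. DESeq2 called 7 of the 8 genes lower on all 10 libraries, the same 6 and Aqp1 (−0.77, DESeq2 Wald test adjusted p = 0.0418, Benjamini-Hochberg). The median of the 8 genes was −1.98 on the TMM scale, beside 0.00 for all genes tested.

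These calls depended on each late ND mouse and on untreated 3. Without any 1 of late 1 to late 5, or without untreated 3, 0 of the 8 genes passed in edgeR's quasi-likelihood test, although at least 7 of the 8 had an unadjusted p under 0.05 in each of those fits (DESeq2 was not run on them). The edgeR quasi-likelihood adjusted p of the 6 genes, by Benjamini-Hochberg, then lay from 0.0526 to 0.0609 without late 4, 0.0560 to 0.0604 without late 2, 0.0569 to 0.0664 without late 1, 0.0623 to 0.0733 without late 3, 0.0640 to 0.0732 without late 5 and 0.0712 to 0.0807 without untreated 3. Bpgm was also lost without untreated 1 or untreated 4 (edgeR quasi-likelihood adjusted p of 0.0511 and 0.0516, Benjamini-Hochberg, over a range of 0.00464 to 0.0758 in all 10 fits). In edgeR's fits with 1 mouse left out, Aqp1 passed only without untreated 5, at −0.92 (edgeR quasi-likelihood adjusted p = 0.0167, Benjamini-Hochberg, range 0.0167 to 0.218), so that 7 of the 8 passed there, against 5 without untreated 1 or 4 and 6 without untreated 2. Of all genes, edgeR called 157, 338, 0, 199 and 593 without untreated 1 to 5 and 0, 1, 9, 0 and 0 without late 1 to 5, where 1929 genes without untreated 3 and 2099, 1821 and 2219 without late 1, 4 and 5 had an unadjusted p under 0.05. All 8 log2 fold changes stayed below 0 in all 10 fits. Among the libraries rich in 18S sequence 0 of the 8 genes and 0 of all genes passed in edgeR's test, with 6 of the 8 and 1917 of all at an unadjusted p under 0.05.

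**Figure D3:**
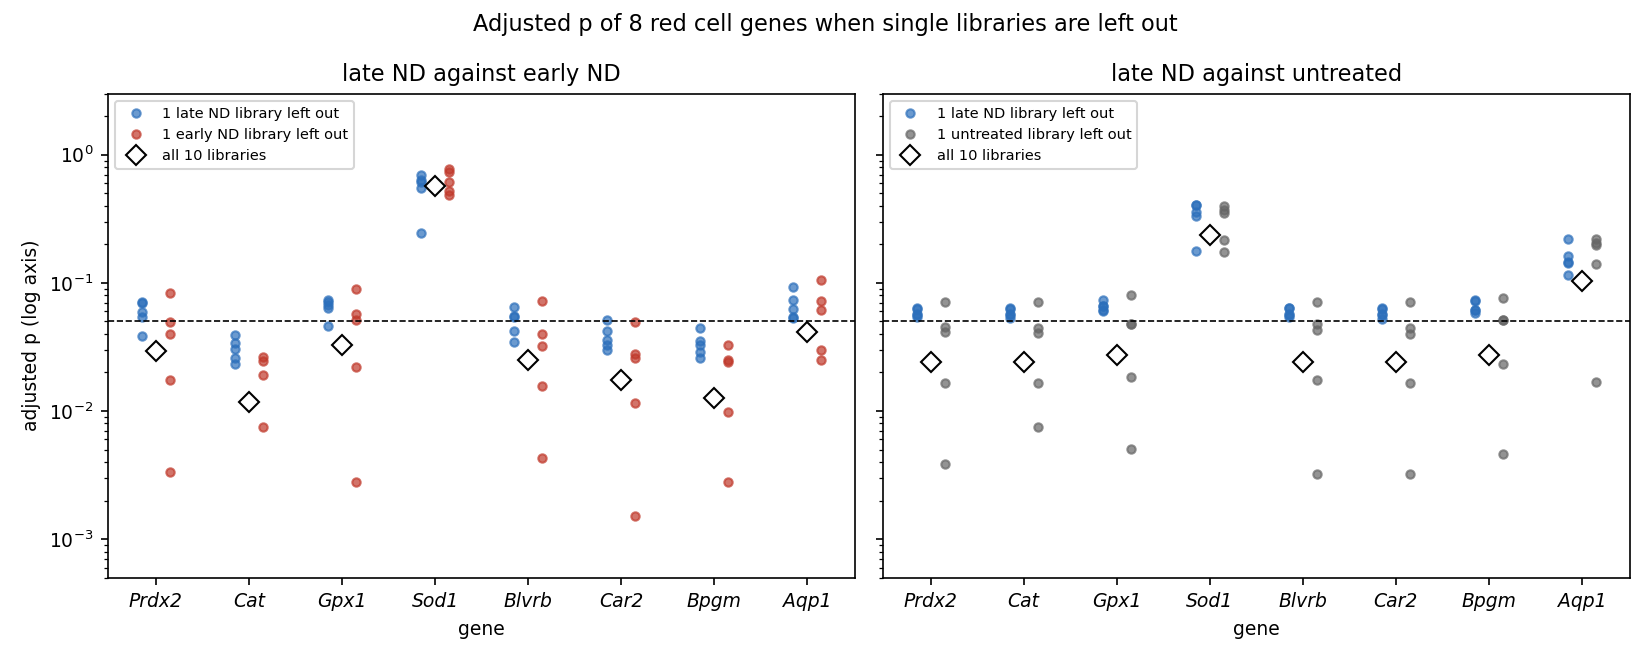
Adjusted p (log axis) of each gene in the late ND comparisons with all 10 libraries (diamonds) and with 1 library left out (points, by the group of the library left out), with a dashed line at 0.05. Cat and Bpgm stay under the line against early ND, while against untreated mice all 8 genes lie above it whenever a late ND mouse is left out. Of these, Sod1 and Aqp1 lie above it against untreated mice with all 10 libraries as well.

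Early ND mice were set against untreated mice as a comparison that holds no late ND library, although it shares its groups with those above. In edgeR's quasi-likelihood test 0 of 12151 genes passed (0%), and 0 of the 8, while 539 of all genes and 0 of the 8 had an unadjusted p under 0.05, and DESeq2 called 1 gene, none of the 8. The log2 fold changes of the 8 genes ran from −0.26 (Sod1, standard error 0.18) to 0.20 (Aqp1, standard error 0.25). Those of the genes that fell in late ND were −0.01 for Prdx2, 0.02 for Cat, −0.17 for Gpx1, −0.18 for Blvrb, −0.01 for Car2 and 0.07 for Bpgm, with standard errors from 0.32 (Cat) to 0.56 (Car2). Changes of the size of these standard errors, and somewhat larger ones, could have been missed. All 8 genes overlapped between the groups.

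To ask whether the 8 genes moved with hemoglobin or apart from it, counts were also expressed per 1000 counts of the 4 hemoglobin genes in the same library. All genes share those denominators, and on this scale nearly the whole table moved. In late against early ND edgeR's quasi-likelihood test called 12878 of 13255 genes higher (97.2%) and 1 lower, and the median gene rose by 2.05 on the log2 scale. A gene near 0 on this scale is thus one that kept pace with hemoglobin, and a gene near 2 is one that kept pace with the median gene.

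Bpgm had 11.9, 17.7, 7.59, 12.8 and 5.45 counts per 1000 hemoglobin counts in untreated mice 1 to 5, and 9.53, 13.9, 14.1, 11.6 and 13.5 in early ND mice 1 to 5. Late ND mice 1 to 5 had 10.3, 16.5, 9.71, 7.99 and 9.59, so that the groups that differed without overlap on the TMM scale lay within each other here. Sod1 had 0.0455, 0.208, 0.0527, 0.0836 and 0.207 in untreated mice 1 to 5, 0.137, 0.0791, 0.154, 0.0390 and 0.0789 in early ND mice 1 to 5, and 0.185, 0.429, 0.366, 0.204 and 0.659 in late ND mice 1 to 5. For Sod1 the late ND values exceeded all 5 early ND values. Prdx2 averaged 0.551 ± 0.297 (SD, n = 5) per 1000 hemoglobin counts in early ND and 0.660 ± 0.233 (SD, n = 5) in late ND mice, and Car2 0.395 ± 0.222 (SD, n = 5) and 0.301 ± 0.0612 (SD, n = 5). Blvrb averaged 0.219 ± 0.101 (SD, n = 5) in early ND and 0.271 ± 0.0859 (SD, n = 5) in late ND mice, again within the spread. Gpx1 averaged 3.39 ± 1.35 (SD, n = 5) and 5.05 ± 1.54 (SD, n = 5), and Cat 0.541 ± 0.186 (SD, n = 5) and 0.849 ± 0.363 (SD, n = 5). Aqp1 averaged 0.0444 ± 0.0185 (SD, n = 5) in early ND and 0.0954 ± 0.0373 (SD, n = 5) in late ND mice, which touched only at early 1 and late 4.

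**Figure D4:**
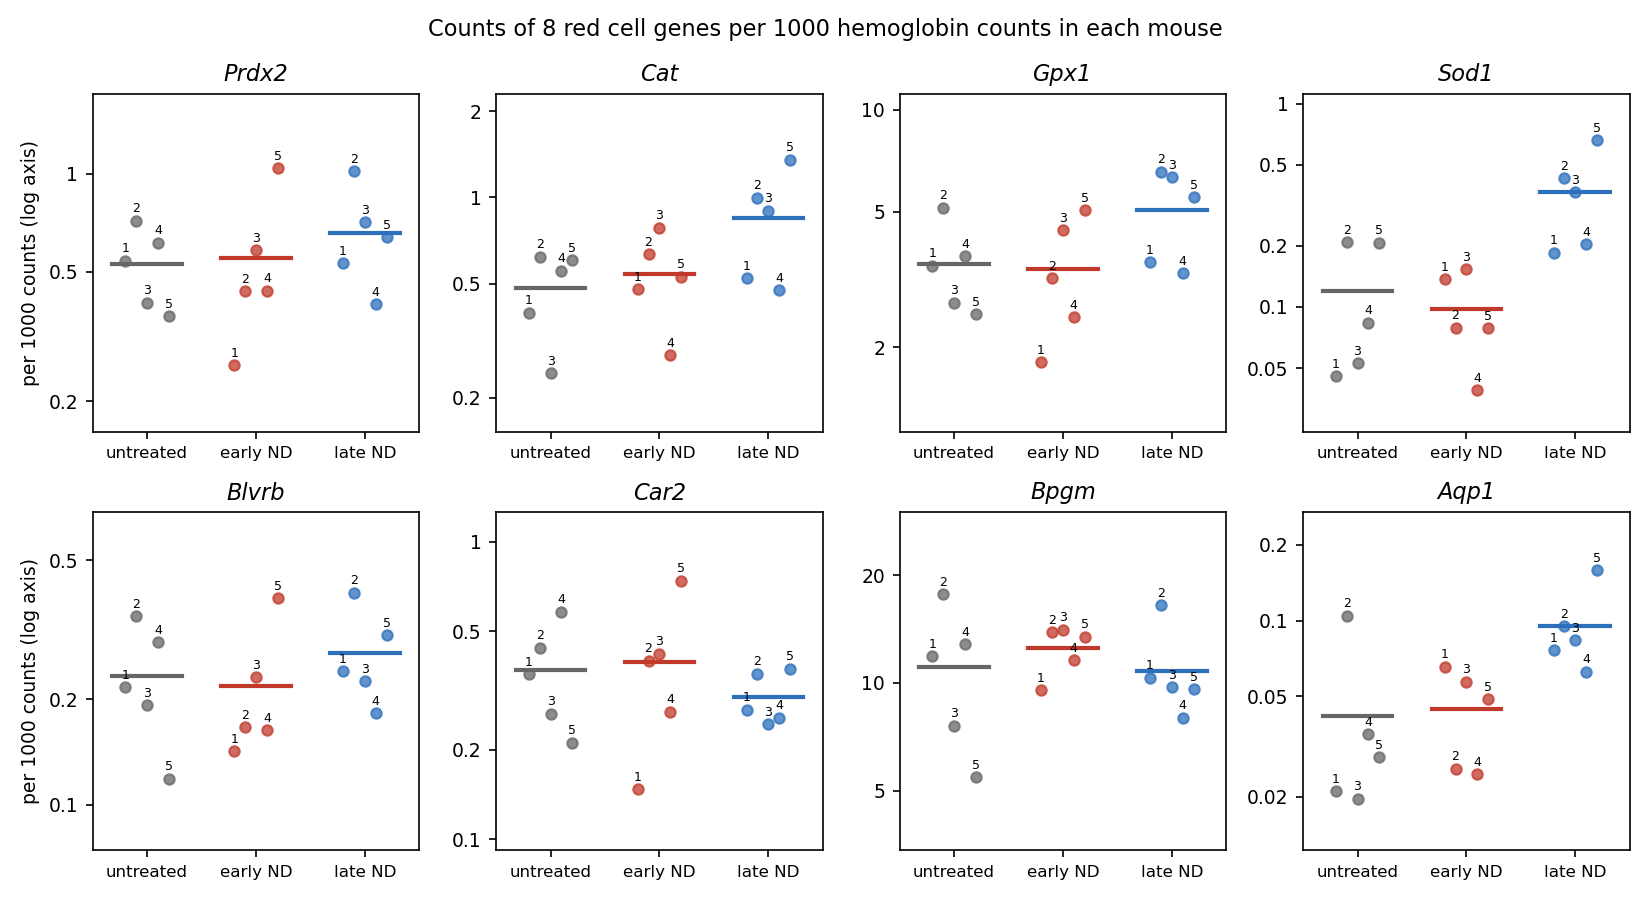
Counts of each gene per 1000 hemoglobin counts of the same library (log axis) in each mouse, by group, with points numbered by mouse and a line at the group mean. Early and late ND mice overlap for every gene but Sod1, whose late ND mice lie above all early ND mice.

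In late against early ND per hemoglobin count, 2 of the 8 genes passed, both higher, beside 97.2% of all genes. Sod1 rose by 1.92 (standard error 0.49, edgeR quasi-likelihood adjusted p = 0.000188, Benjamini-Hochberg), close to the median gene, and passed in all 10 fits with 1 mouse left out. Aqp1 rose by 1.10 (standard error 0.50, edgeR quasi-likelihood adjusted p = 0.0275, Benjamini-Hochberg), and was lost without early 2 (0.0929) or late 5 (0.113), over a range of 0.0153 to 0.113, and among libraries rich in 18S sequence (0.0668). The other 6 did not pass, with Cat at 0.65 (standard error 0.46), Gpx1 at 0.58 (0.42), Blvrb at 0.31 (0.47), Prdx2 at 0.26 (0.45), Bpgm at −0.21 (0.39) and Car2 at −0.39 (0.46). Departures from hemoglobin of the size of these standard errors, and larger ones such as those of Cat and Gpx1, did not pass. The 95% interval from the normal quantile ran from −0.24 to 1.54 for Cat and from −1.29 to 0.51 for Car2. A value that misses the threshold does not show that a gene moved exactly as hemoglobin did. In late ND against untreated mice 13119 of 13820 genes were higher per hemoglobin count (94.9%), with a median of 1.98, and 1 of the 8 passed, Sod1 at 1.63 (standard error 0.61, edgeR quasi-likelihood adjusted p = 0.00931, Benjamini-Hochberg), which was lost without late 5 (0.0510, highest of a range from 0.000856). Aqp1 differed by 1.18 (standard error 0.61, edgeR quasi-likelihood adjusted p = 0.0560, Benjamini-Hochberg), and passed without untreated 2 (0.00185) or late 4 (0.0450) in a range that reached 0.172. It also passed with 12 erythroid markers as the scale (0.0248) and among libraries rich in 18S sequence (0.0109). Relative to hemoglobin, Bpgm differed from untreated mice by −0.03, Car2 by −0.30, Blvrb by 0.22, Prdx2 by 0.32, Gpx1 by 0.53 and Cat by 0.81. The hemoglobin genes themselves moved by −2.44 (Hbb-bt), −2.38 (Hbb-bs), −1.72 (Hba-a1) and −1.69 (Hba-a2) in late against early ND, of which Hbb-bt passed (edgeR quasi-likelihood adjusted p = 0.0392, Benjamini-Hochberg). All 4 were lower at an unadjusted p under 0.05, and DESeq2 called all 4 lower.

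How closely the genes moved together was described by the standard deviation over the 15 libraries of the log2 ratio of their counts, where a smaller value means a closer course. All libraries enter, so the step between groups is part of it. Prdx2 kept closest to Blvrb (0.22) and Gpx1 (0.23), and its ratio to Gpx1 was as steady within the groups (0.21). Bpgm kept closer to Blvrb (0.39) than to the other 6. Sod1 stood far from Car2 (1.41), Bpgm (1.31) and Prdx2 (1.17), and nearer to Cat (0.73) and Aqp1 (0.60). For Aqp1, Sod1 was the nearest of the other 7, with Cat next (0.61). Against the summed hemoglobin counts the value was 0.45 for Bpgm, 0.53 for Blvrb, 0.54 for Gpx1, 0.55 for Prdx2, 0.59 for Car2 and 0.65 for Cat, with 0.93 for Aqp1 and 1.21 for Sod1. Of 9454 genes only 0.465% had a smaller value than Bpgm, 1.39% than Cat, 2.80% than Aqp1 and 16.9% than Sod1, and the median gene had 1.34.

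**Figure D5:**
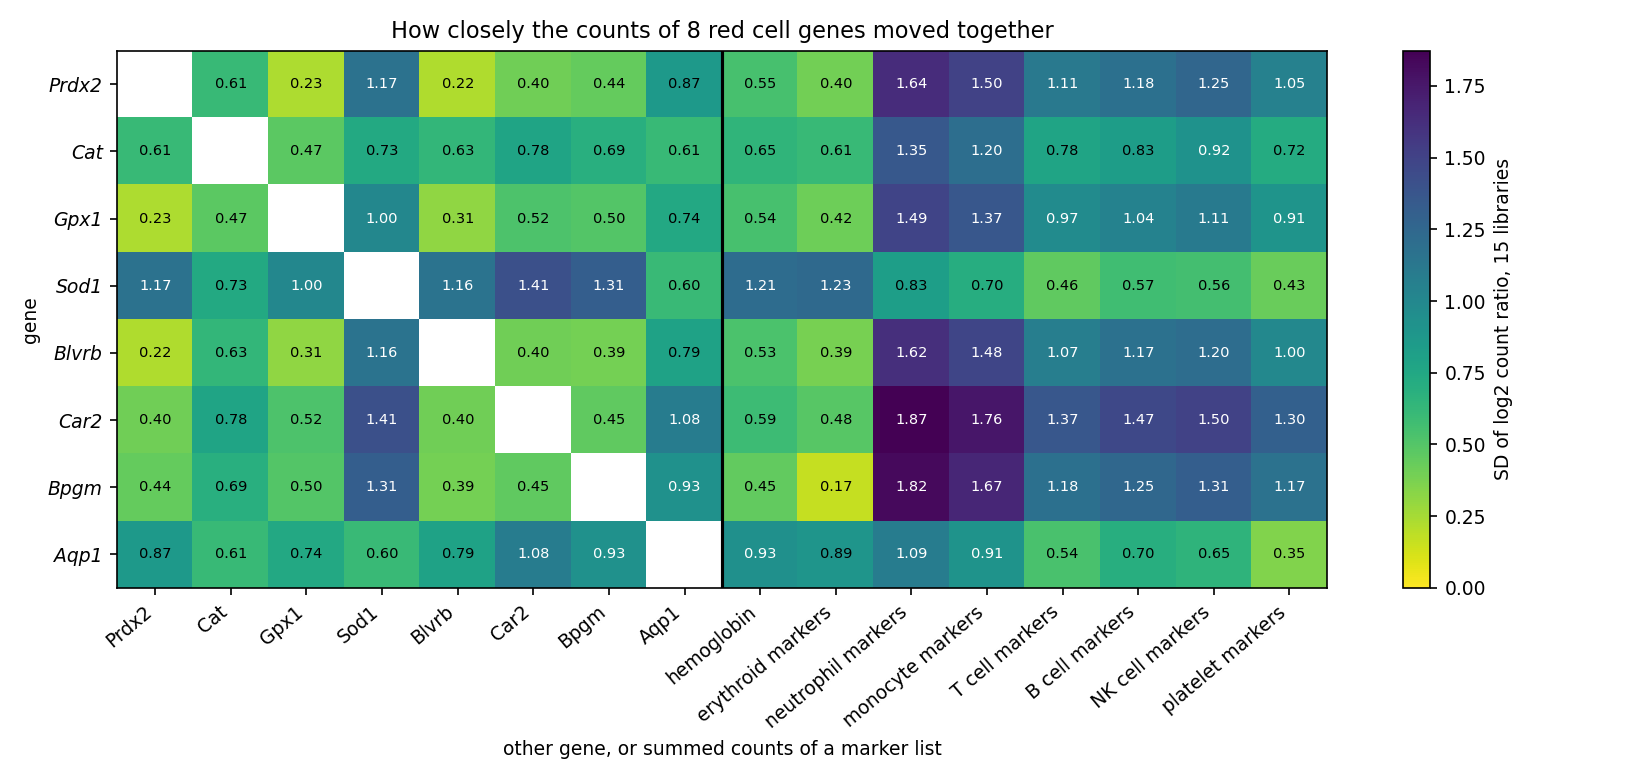
Standard deviation over 15 libraries of the log2 ratio of the counts of each gene (vertical axis) to those of each other gene or to the summed counts of a marker list (horizontal axis), smaller and lighter for a closer course. Bpgm and the erythroid markers form the closest pair at 0.17, and Sod1 lies farthest from Car2 and Bpgm and nearest to Aqp1 among the 8 genes.

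Against the summed counts of 12 erythroid markers, Bpgm had a value of 0.17 (0.16 within groups), and its counts were between 243 and 355 per 1000 erythroid marker counts in all 15 libraries. The other values were 0.39 for Blvrb, 0.40 for Prdx2, 0.42 for Gpx1, 0.48 for Car2, 0.61 for Cat, 0.89 for Aqp1 and 1.23 for Sod1. Of 8 marker lists the erythroid list was the closest to 6 of the 8 genes, all but Sod1 and Aqp1, which lay closest to the platelet markers (0.43 and 0.35). Within groups Cat lay closer to the monocyte markers (0.46) than to the erythroid markers (0.56), and Sod1 lay closest to the monocyte markers as well (0.43, against 0.44 for platelets).

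Among 9446 genes outside the 8, genes with a close course to Bpgm were Aldh1a1 (0.20) and Ube2l6 (0.20). Those closest to Car2 were Slc4a1 (0.19), Prxl2a (0.24) and Trim10 (0.26), and those closest to Blvrb were Nt5c3 (0.19), Dhrs11 (0.22) and Hagh (0.23). Slc4a1 is itself on the erythroid list. For Gpx1 they were Rnaseh2a (0.19), Cd24a (0.21) and Ubb (0.22), and for Prdx2 they were Rnaseh2a (0.27), Ubb-ps (0.28) and Nt5c3 (0.28), where Rnaseh2a lies opposite Prdx2 and may share its reads. For Cat they were Slc25a51 (0.28), Fbxo9 (0.30) and Acp1 (0.30). Sod1 had Mrpl12 (0.16), Cars1 (0.16) and Hspa9 (0.18), beside a median over all genes of 0.43, lower than the median of any of the other 7. Aqp1 had Mmrn1 (0.20), Stradb (0.24) and Arhgap18 (0.25).

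Markers of other cells moved beside these genes, and their part in the result was not tested. The 12 erythroid markers, with Alas2 the most abundant and Klf1 under 1 CPM on average, summed to 49933, 12329, 31094, 20284 and 8594 CPM in untreated mice 1 to 5. They summed to 9515, 26046, 15461, 44334 and 26836 CPM in early ND mice 1 to 5, and to 6391, 4865, 4699, 5882 and 2976 CPM in late ND mice 1 to 5. All late ND mice lay below all others. In edgeR's test 9 of the 11 that could be tested were lower in late than in early ND (median −2.58), among them Fech (−2.58), and 10 of 11 were lower than in untreated mice (median −2.61). At an unadjusted p under 0.05 all 11 were lower in each, and DESeq2 called 10 and 11 of the list. Over all genes, 3163 of 13315 against early ND and 2299 of 13547 against untreated mice had such a p. DESeq2 called 10.2% and 5.14% of the genes it tested. The 10 neutrophil markers, with S100a9 the most abundant and none at 0, summed to 8305, 11450, 4533, 12050 and 9464 CPM in untreated mice 1 to 5. They summed to 3802, 2390, 7641, 3178 and 6786 CPM in early ND mice 1 to 5, and to 10905, 5825, 11816, 15592 and 7718 CPM in late ND mice 1 to 5. The late ND mice were high and overlapped the early ND mice only through late 2, and 1 of 10 markers, Mmp8 (1.81), was called higher than in early ND by edgeR's test, where 7 were higher at an unadjusted p under 0.05 and DESeq2 called 7 higher. Against untreated mice 0 of 10 were called by edgeR or DESeq2, and 0 had an unadjusted p under 0.05. The 7 monocyte markers, with F13a1 the most abundant and none at 0, summed to 824, 564, 618, 992 and 693 CPM in untreated mice 1 to 5. They summed to 685, 599, 642, 815 and 1291 CPM in early ND mice 1 to 5, and to 1568, 1175, 1074, 1629 and 1454 CPM in late ND mice 1 to 5, where 2 of 7 were called higher than in early ND (Fn1 at 1.64 and Csf1r at 0.75) and 3 of 7 higher than in untreated mice, with Ccr2 (1.11) added. At an unadjusted p under 0.05, 4 and 6 of the 7 were higher, and DESeq2 called 3 and 4. The 7 platelet markers, with Ppbp the most abundant and Gp1bb at 0 in every library, summed to 2855, 2916, 2744, 2685 and 1791 CPM in untreated mice 1 to 5. They summed to 2822, 1952, 2061, 2672 and 3760 CPM in early ND mice 1 to 5, and to 1917, 1552, 2034, 1826 and 2302 CPM in late ND mice 1 to 5, and 0 of the 6 tested were called by edgeR in either late ND comparison, although 2 were lower at an unadjusted p under 0.05 in each, and DESeq2 called 0 against early ND and 1 against untreated mice. Endothelial cells make Aqp1, and the 5 endothelial markers, with Vwf the most abundant and 3 under 1 CPM on average, summed to 32.5 to 103 CPM in late ND, 49.1 to 95.8 CPM in early ND and 35.1 to 125 CPM in untreated mice. Of the T cell, B cell, natural killer cell, skin and endothelial markers, edgeR called Cd3g alone, at −0.63 in late ND against untreated mice, while 6 T cell markers were lower there at an unadjusted p under 0.05 and DESeq2 called 4. Against early ND, 1 natural killer cell marker and 1 endothelial marker were lower at an unadjusted p under 0.05, and DESeq2 called 0. The endothelial marker was Kdr, named here after its value was seen, at −0.84 (standard error 0.25, edgeR quasi-likelihood adjusted p = 0.0707, Benjamini-Hochberg), and 0.15 against untreated mice.

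Other genes of the same pathways were counted in the same way. Of 69 listed genes in 9 lists, 58 could be tested in late against early ND, where edgeR's quasi-likelihood test called 1 higher and 5 lower, and their median log2 fold change was 0.10, beside −1.80 for the 8 genes and 0.01 for all genes. At an unadjusted p under 0.05, 16 were higher and 11 lower, and DESeq2 called 4 higher and 10 lower. In late ND against untreated mice edgeR called 0 of 59 higher and 6 lower (median −0.06), with 2 higher and 14 lower at an unadjusted p under 0.05, and 0 higher and 11 lower by DESeq2. Of all genes tested, edgeR called 2.48% lower against early ND and 2.01% lower against untreated mice. In either direction, 3163 of 13315 and 2299 of 13547 genes had an unadjusted p under 0.05 in edgeR. DESeq2 called 797 higher and 652 lower of 14162 genes against early ND. Against untreated mice it called 268 higher and 540 lower of 15716. These values over all genes are the background for each list below.

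Among the thiol peroxidases, 0 of the 6 other peroxiredoxin genes, with sulfiredoxin Srxn1 counted among them, were called in either late ND comparison, with a median of −0.04 against early ND. Over all genes, 3163 of 13315 against early ND and 2299 of 13547 against untreated mice had an unadjusted p under 0.05 in edgeR. Of these 6 genes, 1 was higher and 1 lower at that threshold against early ND, and 3 were lower against untreated mice. DESeq2 called 1 of the 6 lower in each. Their summed level ran from 332 to 486 CPM in late ND, 284 to 544 CPM in early ND and 418 to 491 CPM in untreated mice, in all of which the groups overlapped, and whether they differed from Prdx2 was not tested. Of 10 genes that make or use glutathione, 3 were lower in both late ND comparisons, against early ND and untreated mice in that order. They were Glrx5, a glutaredoxin of mitochondrial iron-sulfur cluster assembly (−2.16 and −2.17), Gclm, a subunit of the enzyme that begins glutathione synthesis (−1.24 and −1.27), and the glutathione transferase Gstm5 (−2.09 and −1.71). Their edgeR quasi-likelihood adjusted p by Benjamini-Hochberg was 0.0126, 0.0225 and 0.0126 against early ND. In this list 2 were higher and 4 lower at an unadjusted p under 0.05 against early ND and 0 and 4 against untreated mice, and DESeq2 called 1 higher and 3 lower, then 0 and 4. Of 5 thioredoxin genes, the mitochondrial reductase Txnrd2 was lower in both (−1.26 and −1.41), DESeq2 called 1 of the list lower in each, and at an unadjusted p under 0.05 there was 1 gene higher against early ND. Among 3 genes listed with Sod1, 0 of the 2 tested, Sod2 and the copper chaperone Ccs, were called by edgeR, with 1 lower at an unadjusted p under 0.05 and by DESeq2 in each late ND comparison.

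The 5 genes of the pentose phosphate route, which supplies the NADPH that reduces glutathione and thioredoxin, had 0 calls by edgeR or DESeq2 and a median of 0.50 against early ND, with 3 higher at an unadjusted p under 0.05, and 0 calls by either tool and 0 at an unadjusted p under 0.05 against untreated mice. Of 17 glycolysis genes, the route from which Bpgm draws its substrate, 16 were tested, and the hexokinase Hk3 was called higher than in early ND (1.11), with a median of 0.43 and with 7 higher at an unadjusted p under 0.05. Against untreated mice edgeR and DESeq2 called 0 of the 16, with 1 higher and 1 lower at an unadjusted p under 0.05. Among the genes listed with Blvrb for heme breakdown and flavin reduction, edgeR called 0 of 6 against early ND (1 higher and 1 lower at an unadjusted p under 0.05, and 1 higher by DESeq2), and 1 of 7, Cyb5a (−0.61), against untreated mice (1 higher and 2 lower at an unadjusted p under 0.05, and 1 lower by DESeq2). Of 8 other carbonic anhydrases only Car5b passed the filter on low counts, and it was not called (0.19 against early ND). The 8 summed to between 4.13 and 31.4 CPM in a library. Of 7 water, gas and anion channel genes tested beside Aqp1, the band 3 anion exchanger Slc4a1, which moves the bicarbonate that carbonic anhydrase makes, was lower in both comparisons (−2.75 and −2.84). At an unadjusted p under 0.05, 1 of this list was higher and 3 were lower against early ND, and 0 and 2 against untreated mice. DESeq2 called 1 higher and 4 lower against early ND, and 0 and 3 against untreated mice. Slc4a1 is also the gene whose course was closest to that of Car2.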

How the data were processed

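Total RNA of whole blood was sequenced in 15 mice, 1 library each. The authors deposited raw counts of read pairs per gene, made per the labels with STAR 2.7.9, SAMtools 1.7 and HTSeq 0.13.5 on GRCm39 (the notes also name mm10), and state neither annotation release nor strand setting. Records that name no gene stayed out of library sizes and tests. Of all records 44.1% to 75.2% aligned to several places, and 52.0% to 56.4% of those placed once were counted on no gene or were ambiguous. With the strand setting unstated, a record counted on no gene need not lie outside genes. Of 55416 identifiers 54749 matched the annotation, and all 147 listed symbols were found. The members and lists were chosen with earlier results of these data known.

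Counts were tested in R 4.3.3 with edgeR 4.0.16 (filterByExpr, TMM, quasi-likelihood test, standard errors from the F statistic) in the 2 groups compared, with p-values adjusted by Benjamini-Hochberg over all genes tested. The steps were tested on simulated data. A further fit used each library's hemoglobin counts as offset. TMM-normalized CPM came from all 15 libraries. Alternatives were library totals, scaling without hemoglobin and Rn18s-rs5, DESeq2 1.42.0, no filter, all 15 libraries in 1 fit, a replicate block, libraries rich in 18S sequence (Rn18s-rs5 at 5000 CPM or more), 12 erythroid markers as the other scale, and each library left out. By the rule fixed before the counts were read, all 8 genes were named throughout, list genes at an adjusted p under 0.05 in a late ND comparison (at most 3 per list and direction, by smallest adjusted p), and of the genes most alike up to 3 with the smallest standard deviation of the log2 count ratio (0.5 added) among those with a mean count of at least 50. Other genes, such as the most abundant of a list, those opposite Prdx2, Gpx1 and Sod1, and single list genes not called, were chosen after their values were seen. Near-identical copies were sought with BLAST 2.17.0 (98% identity over at least 100 bases). Tables and figures were made in Python 3.11.15 with pandas 2.3.3, numpy 2.4.6 and matplotlib 3.10.9. Depth was 5527108 to 13924361 gene counts per library.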

Additional observations from a re-analysis of the deposited data

Results flagged for a closer look

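Of 48 groups of 5 mice examined (the 8 genes on both scales in each group), 2 held a value whose gap to the nearest other value took up more of the group's range than is usual in 5 samples. Chance flags about 1 in 20 groups. Bpgm had 16.5 counts per 1000 hemoglobin counts in late 2, where the other late ND mice had 7.99 to 10.3 (gap over range 0.724). Aqp1 had 0.105 counts per 1000 hemoglobin counts in untreated 2, where the other untreated mice had 0.0196 to 0.0355 (gap over range 0.814). Both libraries are among the 3 poor in 18S sequence, and whether that bears on either value was not tested.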

How the results depend on the processing

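On the TMM scale, all 8 genes kept log2 fold changes below 0 in both late ND comparisons under every alternative except library totals. Under library totals Sod1 in late against early ND reversed to 0.71 and passed, and Sod1 and Aqp1 against untreated mice changed sign without passing. That scaling moved the median of all genes by 0.86 and 0.91.

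For late against early ND the number of genes called was 663. It was 9060 with library totals (8923 higher and 137 lower), 1449 with DESeq2 (797 higher and 652 lower), 1282 without the filter on low counts (886 higher and 396 lower) and 4 among libraries rich in 18S sequence, which are fewer. The number of the 8 genes called was 7, and it was 4 with the replicate block and 0 among libraries rich in 18S sequence. Per hemoglobin count it was 2, and 1 among libraries rich in 18S sequence.

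For late ND against untreated mice the number of genes called was 406. It was 7574 with library totals (7484 higher and 90 lower), 808 with DESeq2 and 0 among libraries rich in 18S sequence (1917 at an unadjusted p under 0.05 in edgeR). The number of the 8 genes called was 6, 7 with DESeq2, which added Aqp1, and 0 among libraries rich in 18S sequence (6 at an unadjusted p under 0.05). Per hemoglobin count it was 1, and it was 2 with 12 erythroid markers as the scale, 2 with the replicate block and 2 among libraries rich in 18S sequence. For early ND against untreated mice 0 genes were called by edgeR, 3 with library totals and 1 with DESeq2, and 539 had an unadjusted p under 0.05. The cause of these changes was not tested.

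With 1 library left out, the genes called ranged from 145 to 1610 for late against early ND and from 0 to 593 for late ND against untreated mice. The 8 genes called ranged from 2 to 7 and from 0 to 7, and per hemoglobin count from 1 to 2 and from 0 to 2. For early ND against untreated mice all were 0 in edgeR's test, with 331 to 1182 genes at an unadjusted p under 0.05.

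Nothing states that same-numbered mice share an origin, and the numbers were not treated as pairs. The mean correlation of same-numbered mice over 13421 genes was −0.01 for late and early ND and −0.10 for early ND and untreated mice. For late ND and untreated mice it was 0.243, with all 5 above 0 (0.0289 to 0.579). The own number was the best match for 1 of 5 mice for late and early ND. It was so for 0 of 5 for early ND and untreated mice, and for 3 of 5 for late ND and untreated mice. With the replicate block 673 genes were called in late against early ND, against 663 without it. In late ND against untreated mice 607 were called, against 406 without the block. In early ND against untreated mice 0 were called with or without it. Among the 8 genes, Prdx2, Gpx1 and Blvrb lost their calls in late against early ND with the block.

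Across single genes on the TMM scale, 36 of the alternatives' values in late against early ND and 46 in late ND against untreated mice fell short of a threshold that the reported value passed, in the same direction. In late ND against untreated mice 2 passed where the reported value did not, both for Aqp1 (with DESeq2 and without untreated 5). Per hemoglobin count 3 and 1 fell short, and 5 passed where the reported value did not, all for Aqp1 against untreated mice.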
